A study of Gallus gallus with 6 samples.

Results

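At 1193 sites in posterior pre-placodal tissue, an H3K27ac peak of control explants was no longer called after 6 h of FGF2, and an H3K27me3 peak was called in its place. These switching sites were chosen by their peak calls: each is a control Homer H3K27ac peak that shares at least 1 bp with an FGF2 Homer H3K27me3 peak and overlaps no FGF2 Homer H3K27ac peak. They are 1193 of 32725 control H3K27ac peaks, or 3.65% (95% Wilson interval 3.45 to 3.85%). At 877 of them no control Homer H3K27me3 peak was present, and these are called full switches. The other 316 already carried a control H3K27me3 peak and differed between the conditions in H3K27ac only. Full switches were 73.5% (70.9 to 75.9%) of the switching sites. These intervals reflect counting error alone, and neighbouring peaks are not fully independent.

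The explants came from HH6 chick embryos and were cultured for 6 h in DMEM/N2 medium with 0.25 ng/µl FGF2, or without FGF2 as control. Around 100 tissues were pooled per condition for nano-ChIP-seq, chromatin immunoprecipitation scaled down to few cells, and 1 library was made for each mark and condition. The FGF2 H3K27me3 library has FGF3 in its source label, while its title and culture condition say FGF2, and it is treated here as FGF2. With single libraries there is no spread between replicates, so every comparison below describes these libraries, without a test. Homer called 37405 H3K27ac peaks with FGF2 and 32725 in control, and 32518 H3K27me3 peaks with FGF2 and 20827 in control. The lists hold positions only, so peak height and read depth are unknown, and a missing peak may be a signal just below the calling threshold.

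Lysine 27 of histone H3 can carry an acetyl group or methyl groups, but not both on the same tail. H3K27ac, placed by p300 and CBP, marks active enhancers and promoters, whereas H3K27me3, placed by Polycomb repressive complex PRC2, marks repressed chromatin, often at developmental regulators. Replacement of the acetyl by the trimethyl mark is one way by which a regulatory element is switched off. The posterior pre-placodal region gives rise to otic-epibranchial progenitors under FGF signalling, and genes of other placodal fates, such as the lens gene Pax6, are repressed in the process. In pooled tissue both marks can also be called at the same place in different cells.

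The first question was whether loss of H3K27ac went together with H3K27me3. Of 19417 control H3K27ac peaks that were lost with FGF2, 6.14% (5.81 to 6.49%) overlapped an FGF2 H3K27me3 peak, and these are the switching sites. Of 13308 peaks that were kept, 8.73% (8.26 to 9.22%) did. Thus H3K27me3 was called less often at lost than at kept H3K27ac peaks. The order was the same among peaks without control H3K27me3, where 5.08% (4.76 to 5.42%) of 17262 lost peaks became full switches, while 7.18% (6.75 to 7.65%) of 12569 kept peaks had an FGF2 H3K27me3 peak. Among peaks with control H3K27me3 the shares were 14.7% (13.2 to 16.2%) of 2155 lost and 35.0% (31.7 to 38.6%) of 739 kept peaks.

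**Figure D1:**
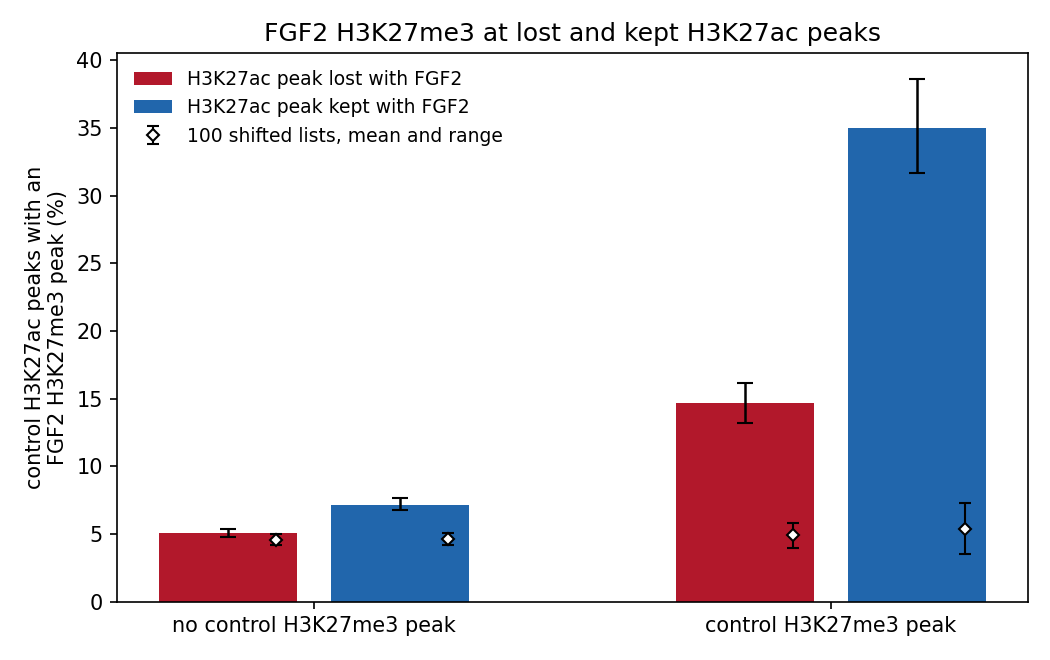
Share of control H3K27ac peaks that overlap an FGF2 H3K27me3 peak (%), for peaks lost with FGF2 (red) and kept (blue), split by the presence of a control H3K27me3 peak. Bars show 95% Wilson intervals, and diamonds with bars the mean and range of 100 shifted lists. Lost peaks without control H3K27me3 stand at 5.08%, close to the shifted lists, and kept peaks with control H3K27me3 stand highest at 35.0%.

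To give these numbers a scale, the FGF2 H3K27me3 peaks were moved 100 times by a random distance along each chromosome, keeping their spacing. The moved lists met the switching rule at 900 peaks on average (range 824 to 971), against 1193 observed, a ratio of 1.33. Full switches numbered 877, while the moved lists gave 793 (722 to 867), a ratio of 1.11. When peaks were moved by only 100 to 500 kb, which keeps regional density, the mean number of full switches was 856 (801 to 923), so that the observed 877 lay inside this range. Kept peaks without control H3K27me3 stood further above the moved lists, with 903 observed. Moves along the whole chromosome gave 582 (528 to 640) on average, a ratio of 1.55. Moves of 100 to 500 kb gave 639 (586 to 699), a ratio of 1.41, against 1.02 for full switches.

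The offset between the marks gives a different picture. At switching sites the FGF2 H3K27me3 peak lay right on top of the former H3K27ac peak. The median distance between the centres of the peaks was 91 bp (quartiles 35 and 248 bp), and the median shared length was 658 of 751 bp. At 1014 of the 1193 sites, or 85.0% (82.9 to 86.9%), the marks shared at least 50% of the H3K27ac peak. Only 26 sites shared 100 bp or less and lay just inside the 1 bp rule. Just outside it were 30 lost H3K27ac peaks with an FGF2 H3K27me3 peak 1 to 100 bp away.

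With 50% of the peak required, 736 full switches were counted, against 397 (348 to 461) in the moved lists, a ratio of 1.86. All switching sites numbered 1014 against 451 (396 to 522), a ratio of 2.25. Kept peaks stood further above the moved lists by the same measure, with 1029 against 313 (271 to 349), a ratio of 3.28. In contrast, lost peaks with an FGF2 H3K27me3 peak within 1000 bp but no shared base were rarer than in the moved lists, with 747 observed and 1108.7 (1029 to 1185) on average, a ratio of 0.674. For kept peaks this ratio was lower still, at 0.401, with 304 observed and 759 (684 to 819) on average. The number of switching sites at 1 bp therefore joins a surplus of well-centred pairs to a deficit of marginal ones, and both were larger at kept peaks. Counts of lost peaks over the whole range up to 1000 bp were 1940 observed and 2008.3 (1913 to 2138) in the moved lists. All these moves ran along the whole chromosome. Moves of 100 to 500 kb gave 2186.4 (2086 to 2289) lost peaks within 1000 bp, above the observed 1940 in each shift. With 50% of the peak shared, these shorter moves gave ratios of 1.72 for full switches, 2.07 for all switching sites and 2.96 for kept peaks.

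**Figure D2:**
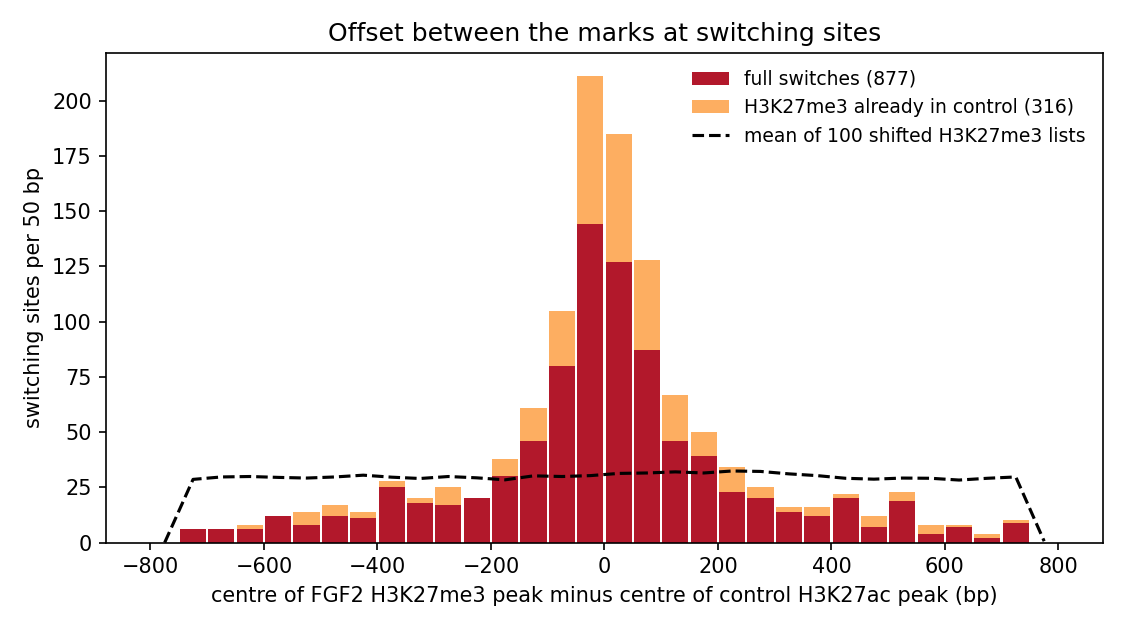
Number of switching sites per 50 bp of offset between the centre of the FGF2 H3K27me3 peak and that of the control H3K27ac peak (bp), for full switches (red) and sites with control H3K27me3 (orange). The dashed line is the mean of 100 shifted lists, which is flat near 30 sites per bin. The observed sites rise to 211 in the bin just left of 0 and fall below the line beyond about 250 bp.

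Close centring was also seen where H3K27ac was kept. The median offset was 100 bp at full switches and 73.5 bp at sites with control H3K27me3. It was 75 bp where H3K27ac was kept and H3K27me3 was present with FGF2 only, and 55 bp where it was kept with H3K27me3 in both conditions. For scale, FGF2 and control H3K27ac peaks at kept sites were 41 bp apart in the median. The share of full switches with the H3K27me3 centre within 100 bp was 50.1% (439 of 877), against 59.8% (540 of 903) at kept peaks with H3K27me3 in FGF2 only.

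The remaining FGF2 H3K27ac was mostly at some distance from a switching site. At 1164 sites the nearest FGF2 H3K27ac peak lay 7762.5 bp away in the median, and the other 29 were on sequences with no FGF2 H3K27ac peak at all. Within 1000 bp an FGF2 H3K27ac peak was found at 61 sites, or 5.11% (4.0 to 6.51%), while this was the case for 9.53% (9.11 to 9.97%) of the 18224 peaks lost without H3K27me3. Only 3 sites had an FGF2 H3K27ac peak within 100 bp, just outside the overlap that would have removed them. On the other side of this limit, 11 of 1162 kept peaks with FGF2 H3K27me3 shared 100 bp or less with their FGF2 H3K27ac peak. Among full switches, 39 of 877 had a control H3K27me3 peak within 1000 bp, and 343 (39.1%) had one within 10000 bp. The share with a further control H3K27me3 peak within 10000 bp was 30.5% of peaks lost with H3K27me3 in neither condition, 32.9% of kept peaks with H3K27me3 in FGF2 only and 29.7% of all control H3K27ac peaks.

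Which control H3K27ac peaks switched was examined by their place in the deposited list, divided into 10 bins of equal size. The order of the Homer list is not explained in the sources used here, but it follows the second caller closely. MACS2 also called 95.3% of the peaks in bin 1, the top of the control H3K27ac list, and 10.6% of those in bin 10. Switching sites lay late in this list. Bin 1 held 22 of them and bin 9 held 204, and 845 sites (70.8%) were in bins 6 to 10. Their median place was 68.0% of the way down, against 62.0% for peaks lost without H3K27me3 and 31.6% for kept peaks without it. The H3K27me3 peaks at these sites, in contrast, were spread over the FGF2 H3K27me3 list, with 681 of 1193 (57.1%) in its bins 1 to 5. At sites with control H3K27me3 they stood earlier, with a median place of 35.0%, than at full switches, with 47.1%. Kept peaks showed the same order, with 23.9% where H3K27me3 was present in both conditions and 46.3% where it was present in FGF2 only. These places were looked at after the data were seen.

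The share of H3K27me3 at lost and kept peaks was also compared within each bin. Lost peaks had the lower share in 9 of 10 bins, with bin 10 as the exception. In bin 1 2.61% (1.73 to 3.92%) of 843 lost and 6.87% (5.93 to 7.95%) of 2430 kept peaks overlapped FGF2 H3K27me3, and the moved lists gave 5.07% (3.56 to 6.64%) for the lost peaks. In bin 9 the shares were 7.64% (6.69 to 8.71%) of lost and 11.6% (9.29 to 14.4%) of kept peaks. In bin 10 they were 6.20% (5.38 to 7.13%) and 5.98% (3.95 to 8.97%). Averaged with equal weight over the bins, 5.68% of lost and 9.06% of kept peaks had FGF2 H3K27me3. Lost peaks near the top of the list thus switched less often than lost peaks further down.

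**Figure D3:**
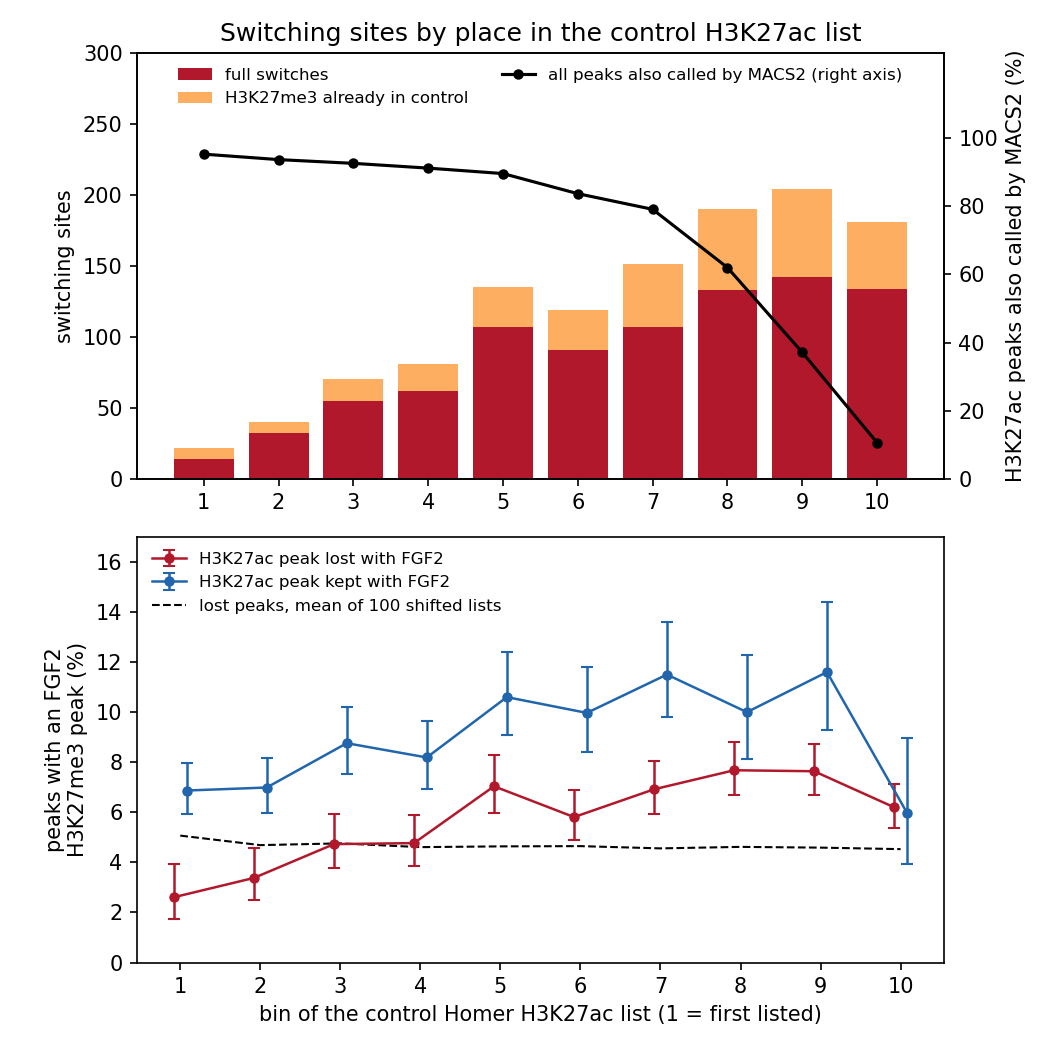
Top, number of switching sites in each bin of the control Homer H3K27ac list, as full switches (red) and sites with control H3K27me3 (orange), with the share of all its peaks also called by MACS2 (black, right axis, %). Bottom, share of lost (red) and kept (blue) peaks with an FGF2 H3K27me3 peak (%), with 95% Wilson intervals and the mean of 100 shifted lists for lost peaks (dashed). Sites increase from 22 in bin 1 to 204 in bin 9, while MACS2 calls fall to 10.6%.

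The MACS2 lists were called on the same reads and were not used by the rule. They can be compared at 973 switching sites, of which 720 are full switches, because the control MACS2 lists give only rounded positions past 100 Mb on the 3 longest chromosomes and leave out unplaced contigs. MACS2 called FGF2 H3K27ac at 13.9% (11.8 to 16.2%) of the switching sites, against 41.3% of all control H3K27ac peaks. It called control H3K27ac at 58.5% (55.4 to 61.5%), against 73.9% of all. FGF2 H3K27me3 was called at 48.4% (45.3 to 51.5%) of the sites, against 6.26% of all, and control H3K27me3 at 3.39% (2.43 to 4.72%), against 0.555% of all. Kept peaks with Homer FGF2 H3K27me3 had similar shares, 52.7% (49.5 to 55.8%) for FGF2 H3K27me3 and 3.73% (2.7 to 5.12%) for control H3K27me3. The control MACS2 H3K27me3 list is short, with 26538 entries in the FGF2 list and 1097 in the control list, so absence from it carries little information. The rule required FGF2 H3K27me3 and no FGF2 H3K27ac by Homer, so the direction of the differences in these FGF2 calls was set by the choice of sites. All peaks compared are control Homer H3K27ac peaks, so that call itself does not separate the groups. However, the rule also required loss of H3K27ac. MACS2 called control H3K27ac at 65.3% (64.5 to 66%) of peaks lost without FGF2 H3K27me3 and 87.3% (86.7 to 88%) of kept peaks without it. The lower share at switching sites may thus follow in part from the choice of sites. Control H3K27me3 was not part of the rule.

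FGF2 H3K27me3 was called at 46.1% (42.5 to 49.8%) of full switches and 54.9% (48.8 to 61.0%) of sites with control H3K27me3, and control H3K27me3 at 0.694% (0.297 to 1.62%) and 11.1% (7.77 to 15.5%). The difference in control H3K27me3 restates the split between these groups, which was made on Homer calls from the same reads. Among 973 sites, 115 (11.8%) had MACS2 H3K27ac in both conditions, so this caller did not see the loss there. Another 237 (24.4%) had no MACS2 call of either mark in either condition. These joint shares were not counted for other peaks. MACS2 called FGF2 H3K27ac at 18.2% (17.6 to 18.8%) of peaks lost without FGF2 H3K27me3, above the 13.9% at switching sites. Control H3K27ac peaks of MACS2 were narrower at full switches, with a median of 760 bp, than at peaks lost without H3K27me3 in either condition (896 bp) or kept without it (1328 bp). The FGF2 H3K27me3 peaks of MACS2 at full switches had a median width of 476 bp and a largest width of 4858 bp, close to the 486 bp median of the 19414 peaks in the comparable part of the list.

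**Figure D4:**
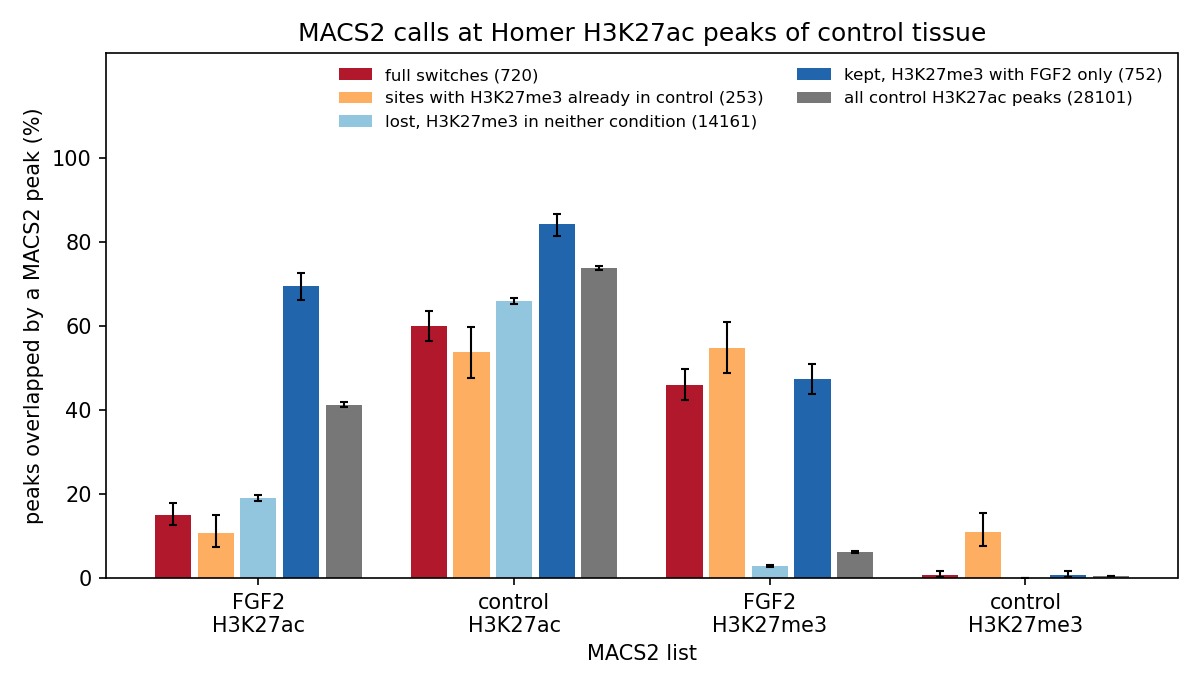
Share of Homer control H3K27ac peaks overlapped by a peak of each MACS2 list (%), for full switches, sites with control H3K27me3, lost peaks without H3K27me3, kept peaks with H3K27me3 in FGF2 only, and all peaks, with 95% Wilson intervals and the number of peaks in the legend. FGF2 H3K27me3 is called at 46.1% of full switches, 47.5% of kept peaks with H3K27me3 in FGF2 only and 6.26% of all peaks. Control H3K27me3 is rarely called in any group.

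At 183 of the 720 full switches, or 25.4% (22.4 to 28.7%), both callers made the full set of calls. That is control H3K27ac and FGF2 H3K27me3 without FGF2 H3K27ac or control H3K27me3. The last requirement was met almost everywhere and changed the count only from 184 to 183. A joint share of this kind was not counted for other peaks, and both callers used the same reads. These 183 sites lie on 27 chromosomes, and the MACS2 peaks of the marks shared sequence at 180 of them, over 293 bp in the median. The MACS2 H3K27me3 peak spanned the whole Homer H3K27ac peak at 13 sites. The widest was on chromosome 5 (galGal4), where a 4858 bp H3K27me3 peak from 56428661 to 56433518 covered the H3K27ac peak at 56430497 to 56431247. On chromosome 17 a peak of 2477 bp covered the site at 4036389 to 4037139, and on chromosome 28 one of 1856 bp covered that at 4437120 to 4437870. Further sites of this kind were found on chromosome 10 (19394309 to 19395059 and 19572961 to 19573711), chromosome 19 (2218410 to 2219160), chromosome 5 (18686013 to 18686763), chromosome 23 (784747 to 785497), chromosome Z (2295755 to 2296505) and chromosome 9 (3174558 to 3175308). Their H3K27me3 peaks were 1018 to 1778 bp wide. The first site on chromosome 10 and that on chromosome 9 each had an FGF2 Homer H3K27ac peak 156 bp away, whereas at the chromosome 19 site the nearest was 32607 bp away. Genes at these positions were not analysed here.

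Switching sites had fewer H3K27ac and more H3K27me3 peaks around them than control H3K27ac peaks as a whole, although H3K27me3 neighbours were most frequent at a group of kept peaks. The rule required FGF2 H3K27me3 and no FGF2 H3K27ac, and the neighbours come from the same Homer lists. These differences may thus follow in part from the choice of sites. Within 10 kb of a full switch there were on average 1.08 further FGF2 H3K27ac peaks and 1.08 further control H3K27ac peaks. Around peaks lost with H3K27me3 in neither condition these means were 1.41 and 1.40, and around kept peaks with H3K27me3 in FGF2 only 1.80 and 1.80. Further FGF2 H3K27me3 peaks averaged 0.851 around full switches, 0.605 around the lost peaks and 0.704 around the kept peaks, and further control H3K27me3 peaks 0.515, 0.374 and 0.411. Sites with control H3K27me3 had 0.864 FGF2 and 0.797 control H3K27ac peaks and 0.959 FGF2 and 0.646 control H3K27me3 peaks around them. Kept peaks with H3K27me3 in both conditions, the group most like them, had 1.25 FGF2 and 1.16 control H3K27ac peaks, and more H3K27me3, with 1.15 FGF2 and 0.819 control peaks. Over all control H3K27ac peaks the means were 1.58 FGF2 and 1.53 control H3K27ac peaks and 0.586 FGF2 and 0.367 control H3K27me3 peaks. The difference in control H3K27me3 around full switches was thus present without FGF2.

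**Figure D5:**
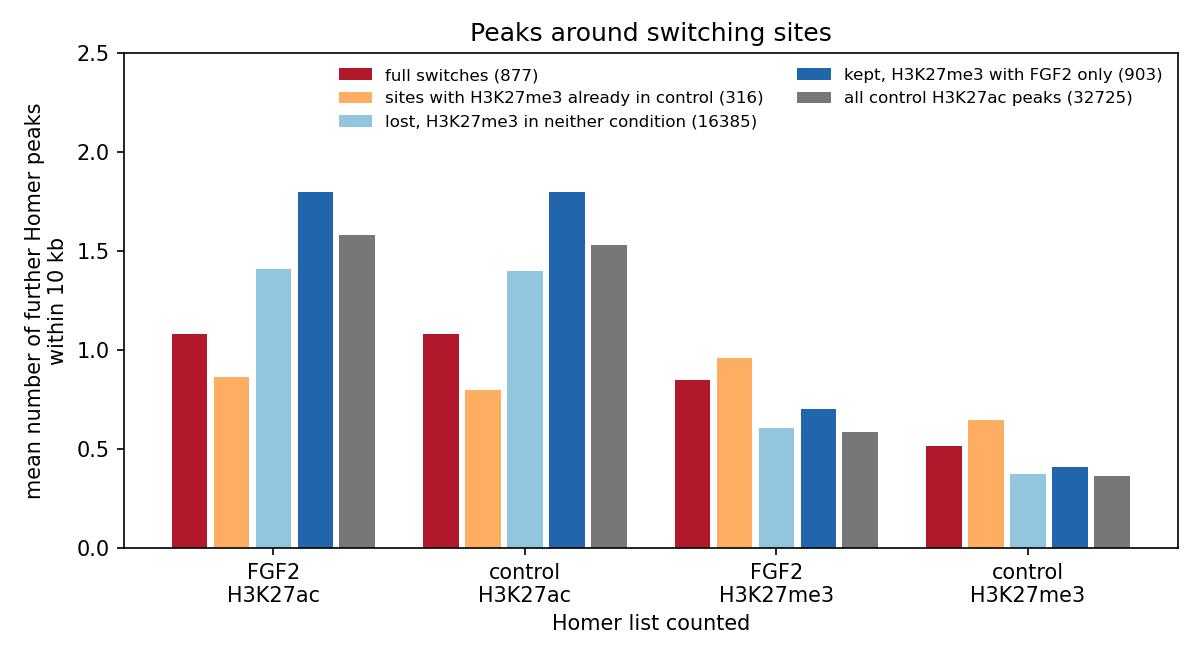
Mean number of further Homer peaks within 10 kb of a control H3K27ac peak, for each Homer list and each group of peaks (numbers in the legend), not counting peaks that overlap it. Of the groups drawn, full switches and sites with control H3K27me3 have the fewest H3K27ac neighbours in both conditions, 1.08 or fewer on average, and the most H3K27me3 neighbours. Kept peaks with H3K27me3 in both conditions are not drawn and have more H3K27me3 neighbours, 1.15 with FGF2 and 0.819 in control. The groups were chosen on the same Homer lists, which may in part set these differences.

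Most sites had no other switching site within 10 kb. With gaps of up to 10 kb they formed 1157 runs, of which 1122 held a single site and 35 held the remaining 71 sites, or 5.95%. The same count was not made for another set of peaks. Only 54% of the sites had any further control H3K27ac peak within 10 kb, with a mean of 1. Since 3.65% of all control H3K27ac peaks are switching sites, few of these neighbours would be sites at that share, and most sites would stand alone. The one run of 3 sites spanned 8223 bp on chromosome 1, from 170490408 to 170498630. It held 3 full switches, with 0 Homer H3K27ac peaks in FGF2 and 3 in control, and with 3 H3K27me3 peaks in FGF2 and 0 in control. The other 34 runs held 2 sites each, and the first 4 of them by position, all on chromosome 1, were 4283221 to 4290290, within the Gata3 window described below, 132669845 to 132675378, 153333425 to 153339064 and 154560124 to 154563665. The last 3 of these consisted of full switches, with 2 H3K27me3 peaks in FGF2 and 0 in control in each.

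Switching sites were found on 69 sequences. Chromosomes 1 to 5 carried 613 of them, 4.38% (4.05 to 4.73%) of their control H3K27ac peaks, whereas chromosomes 11 to 28 carried 332, or 3.0% (2.69 to 3.33%). Relative to lost peaks the shares were 7.0% (6.49 to 7.56%) and 5.40% (4.86 to 6.0%). The lists of FGF2 H3K27me3 peaks were unequal too, with 19040 on chromosomes 1 to 5 and 5288 on chromosomes 11 to 28. On chromosomes 1 to 5 the moved lists gave 410 sites on average (361 to 459) and fewer than observed in each shift, while on chromosomes 11 to 28 they gave 293 (238 to 335), which includes the observed 332. For full switches the numbers were 442 observed and 355 (299 to 409) in moved lists on chromosomes 1 to 5, and 253 observed and 269 (218 to 305) in moved lists on chromosomes 11 to 28. All these counts by chromosome used moves along the whole chromosome. Moves of 100 to 500 kb, which keep regional density, are not given here by chromosome. Chromosome Z had 40 sites, or 3.42% (2.52 to 4.63%), and moved lists gave 27.2 (16 to 40). Chromosome 25 had 0 sites among 207 control H3K27ac peaks, for which the interval reaches 1.82%. Only 78 of these peaks were lost and could be sites, and the chromosome held 59 FGF2 H3K27me3 peaks. Among the chromosomes with at least 100 control H3K27ac peaks, chromosome 1 had the highest share, with 227 of 4359 peaks or 5.21%. Relative to lost peaks the highest was chromosome 22, with 12 sites or 9.45% of 127, while chromosome 1 had 8.31% of 2731.

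The opposite switch, in which an FGF2 Homer H3K27ac peak without a control H3K27ac peak overlaps a control H3K27me3 peak, was counted on the same 4 lists. It occurred 1476 times, and in 665 of these no FGF2 H3K27me3 peak remained. Full switches were 2.68% (2.51 to 2.86%) of 32725 control H3K27ac peaks, and opposite full switches 1.78% (1.65 to 1.92%) of 37405 FGF2 H3K27ac peaks. Moved lists gave 793 for full switches and 559 (499 to 617) for opposite ones, so the ratios to the moved lists were 1.11 and 1.19. For all opposite switches the moved lists gave 850 (786 to 919), a ratio of 1.74, against 1.33 for all switching sites. The FGF2 H3K27me3 list, which full switches draw on, is the longer one. Of its 32518 peaks, 3.67% lay at switching sites, while 7.09% of the 20827 control H3K27me3 peaks lay at opposite switches. With MACS2 lists alone there were 1941 full and 16 opposite full switches, with the short control H3K27me3 list on both sides.

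Switching sites bordered a putative enhancer less often than other control H3K27ac peaks. The authors' putative enhancers are stretches between neighbouring H3K27ac peaks without H3K27me3. The control list used here is labelled with both callers, MACS2 and Homer, and holds 10674 enhancers. Of the switching sites, 426 or 35.7% (33.0 to 38.5%) touched or overlapped one of the control list. This compares with 46.9% (46.2 to 47.7%) of lost peaks with H3K27me3 in neither condition and 50% of all control H3K27ac peaks. Full switches reached 38.7% (35.5 to 41.9%) and sites with control H3K27me3 27.5% (22.9 to 32.7%), the enhancer definition itself leaving out H3K27me3. MACS2 called control H3K27ac at 58.5% of the comparable switching sites and 73.9% of all comparable control H3K27ac peaks. Whether this bears on the shares beside enhancers was not tested. The switching sites bordered 483 control enhancers. Of these, 47 or 9.73% (7.40 to 12.7%) overlapped an FGF2 putative enhancer, against 21.0% (20 to 21.9%) of 7346 enhancers that bordered other lost peaks only. Since FGF2 enhancers were also defined without H3K27me3, a lower share follows in part from the choice of sites. At 255 of the 483, or 52.8% (48.3 to 57.2%), an FGF2 H3K27me3 peak overlapped the enhancer itself, against 6.51% (5.97 to 7.09%) of the enhancers beside other lost peaks only and 8.95% (8.42 to 9.5%) of all control enhancers. This share is largely set by the choice of sites, since each of these enhancers touches or overlaps a site that carries an FGF2 H3K27me3 peak by rule.

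Of the 9 loci with a browser window, the Gata3 window alone held switching sites. The windows held from 0 (Spry1 and Hesx1) to 17 (Eya2) control H3K27ac peaks. As 3.65% of all such peaks are switching sites, most windows would hold none at that share. Gata3, a zinc finger transcription factor of the pre-placodal region and later of the inner ear, had 2 switching sites, and both already carried H3K27me3 in control. The first, on chromosome 1 from 4283221 to 4283971, shared 731 bp with the FGF2 H3K27me3 peak from 4283201 to 4283951. MACS2 called FGF2 H3K27me3 there, and neither H3K27ac nor control H3K27me3. The second, from 4289540 to 4290290, shared 724 bp with the peak from 4289567 to 4290317, and MACS2 called control H3K27ac and H3K27me3 in both conditions. The whole window had 2 Homer H3K27ac peaks with FGF2 and 4 in control, and 6 H3K27me3 peaks with FGF2 and 7 in control. Of the 3 control H3K27ac peaks lost in this window, the third overlapped no FGF2 H3K27me3 peak.

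The windows of Pax6, the lens and eye gene, and Dlx5/6, homeobox genes of the neural plate border and anterior placodes, held no switching site. The Pax6 window had 3 control H3K27ac peaks that were lost, and none of them overlapped any of the 6 FGF2 H3K27me3 peaks. In the Dlx5/6 window 2 control H3K27ac peaks were lost, and neither overlapped the single FGF2 H3K27me3 peak. There was also no site in the windows of Eya2, a co-activator in sensory progenitors, of Spry1 and Spry2, feedback inhibitors of FGF signalling, of Foxi3 and Hesx1, transcription factors of otic and anterior placodes, or of the chemokine gene Cxcl14. Control H3K27ac peaks lost with FGF2 numbered 7 in the Eya2 window and 0 to 2 in the other windows of this group.

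When 100 kb were added on either side of the windows, a step chosen after the values were seen, 3 further sites appeared. The pair beside the Eya2 window on chromosome 20, from 5775327 to 5776077 and from 5785663 to 5786413, are full switches at which both callers made the full set of calls. They shared 738 and 554 bp with their FGF2 H3K27me3 peaks, and FGF2 Homer H3K27ac peaks remained 1751 and 1800 bp away. The third, beside the Cxcl14 window on chromosome 13 from 14582305 to 14583055, already had control H3K27me3 and shared 182 bp with its FGF2 H3K27me3 peak. The flanks of Pax6, Dlx5/6, Spry1, Spry2, Foxi3 and Hesx1 added none. The widened windows held from 1 (Hesx1) to 32 (Eya2) control H3K27ac peaks. Other genes may lie in these flanks, and were not analysed here.

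Predicted AP1 sites, the motif of the Jun and Fos dimer that acts downstream of FGF signalling, were listed in 7 windows around FGF response loci. Their 253 control H3K27ac peaks included 10 switching sites, or 3.95% (2.16 to 7.12%), an interval that includes the 3.65% of all control H3K27ac peaks. Of these 10 sites, 4 lay within 1 kb of a predicted AP1 site, or 40.0% (16.8 to 68.7%), against 51.8% of all control H3K27ac peaks in the windows. On chromosome 13 they were a full switch at 14870665 to 14871415 with 64 bp shared and a site with control H3K27me3 at 14885298 to 14886048. On chromosome 26 they were full switches at 1380259 to 1381009, with 34 bp shared, and at 1680403 to 1681153, with 455 bp shared. MACS2 called FGF2 H3K27ac at 3 of the 4 and FGF2 H3K27me3 only at the last. That site was also the only one to overlap a DREiVe region, a stretch of conserved sequence, out of 8 switching sites between the first and last DREiVe entries of each cluster. These 8 sites were 5.26% (2.69 to 10%) of the 152 control H3K27ac peaks there, of which 9 (5.92%) overlapped a DREiVe region. The Spry1 and Spry2 windows of the AP1 list held no switching site among 8 and 10 control H3K27ac peaks. At the 3.65% share, windows with so few peaks would mostly hold none. The AP1 window on chromosome 7 also held none, among 31 such peaks.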

How the data were processed

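Nano-ChIP-seq libraries for H3K27ac and H3K27me3, 1 per mark with FGF2 and in control, were analysed from the peak lists that the authors deposited. The authors trimmed the first bases, used Novoalign to place the reads on galGal4, discarded reads with several placements and ran Homer and MACS2 with the inputs as background. The lists hold positions without heights or p-values, and read depth is unknown. Homer peaks are nearly all 751 bp wide. Inputs, reads and signal tracks were not used here.

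Switching sites, full switches and the other groups were counted by overlap of at least 1 bp, with coordinates counted from 1. FGF2 H3K27me3 peaks, and control H3K27me3 peaks for the opposite switch, were moved 100 times round each chromosome, whose length was taken as the last peak end. Intervals are 95% Wilson intervals. MACS2 comparisons left out chromosomes 1, 2 and 3 from 100 Mb and sequences missing from the control MACS2 H3K27ac list. Overlap steps were tested on simulated peaks. Python 3.11.15 and numpy 2.4.6 were used.

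The sites and lists were chosen with earlier results of these data known. Named sites are those in the 9 windows, read by eye from browser views, or at AP1 and DREiVe entries, 5 runs (the largest, then those tied at 2 sites by chromosome and position), and the 10 full switches agreed by both callers with the longest MACS2 H3K27me3 overlap (ties by width). Alternatives covered overlap, caller, gap and shift distance. Sequences and nearest genes were not analysed here.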

Additional observations from a re-analysis of the deposited data

How the results depend on the processing

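Counts of switching sites and full switches stayed within 1.5 times when 50% of the peak had to be shared and when FGF2 H3K27ac was excluded within 1000 bp or by either caller, as did full switches when control H3K27me3 was excluded within 1000 bp or by either caller. Accepting H3K27me3 within 1000 bp gave 1940 sites and 1543 full switches, and all lists from MACS2 gave 2033 and 1941. Requiring MACS2 calls of both marks gave 317 and 237. Counts that used MACS2, also those by either caller, cover only the parts with comparable MACS2 positions. There the Homer rule gave 973 sites and 720 full switches. Relative to lists moved along the whole chromosome, the ratio was 1.33 for sites and 1.11 for full switches. Moves of 100 to 500 kb gave 1.22 and 1.02, and the number of full switches lay inside the range of these shifts. With 50% of the peak shared the whole-chromosome ratios were 2.25 and 1.86. Within 1000 bp they were 0.966, with the observed number inside the range of the shifts, and 0.869, with it below that range. These overlap rules were added after seeing the data. The ratio of full to opposite full switches, 1.32 with Homer, was 121 with MACS2, whose control H3K27me3 list is short. Runs of at least 2 sites numbered 112 with gaps of 50 kb. With gaps of up to 3 kb between Homer H3K27ac peaks without H3K27me3 in place of the authors' enhancers, 18.8% of sites lay beside one. This was the case for 33.8% of all control H3K27ac peaks and 29.1% of peaks lost without FGF2 H3K27me3. The gaps used Homer peaks alone, whereas the authors' enhancer list is labelled with both callers. The cause of the difference from the 35.7% of sites beside the authors' enhancers was not tested. Chromosomes with at least 100 control H3K27ac peaks and a site numbered 28. In bins 1 to 5 of the control list MACS2 called control H3K27ac at 86.6% of sites. Of all control H3K27ac peaks it called 95.3% in bin 1 and 89.6% in bin 5, with the bins between in this range. The 100 kb flanks gave 5 sites at named loci. Both of these settings were chosen after seeing the data. The share of lost peaks with FGF2 H3K27me3 was below that of kept peaks in each alternative tried, with ratios from 0.608 to 0.907. No paired analysis was possible because each group has 1 library. Without replicates or depth, a peak near the calling threshold in one library can appear as a switch.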
